A study of Homo sapiens with 96 samples.

Results

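The 6 genes described here, LIN28A, LIN28B, L1TD1, IGF2BP1, IGF2BP2 and IGF2BP3, encode RNA-binding proteins associated with pluripotent stem cells and early embryos. They were taken by name from the 58521 gene symbols counted, and all 6 were present. Levels were read in 84 of 96 single-cell RNA libraries, those with at least 100000 gene reads, at least 2000 genes with a read and at least 1% of gene reads from mitochondrially encoded genes. By the well names in the titles, each came from its own well of a grid of 8 rows by 12 columns, taken here as 1 plate. All were sampled on day 0. The cells were HUES64, an established line of human embryonic stem cells, engineered so that DNMT1, the maintenance DNA methyltransferase, can be knocked out by induction. Every library carried the same genotype, time and treatment labels, and these labels conflict: the description field reads dox+ while the induction field reads No. There was thus 1 group, no second culture was named, and no condition could be compared with another. SDs and ranges below describe wells of this plate, and cells are not replicates of a condition.

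LIN28A and LIN28B are paralogs with a cold-shock domain and zinc knuckles. In stem cells they bind the precursors of let-7 microRNAs and hold mature let-7 low. LIN28A is known to recruit terminal uridylyltransferases to these precursors. Both paralogs also bind many messenger RNAs. Let-7 in turn pairs through its seed with the 3′ UTRs of LIN28 transcripts and of several growth genes, which closes a feedback loop. L1TD1 is derived from the first open reading frame of a LINE-1 retrotransposon and is known as a LIN28A-associated RNA-binding protein of human embryonic stem cells. IGF2BP1, IGF2BP2 and IGF2BP3 bind messenger RNAs through RRM and KH domains, were first described on IGF2 and ACTB transcripts, and are known as readers of N6-methyladenosine (m6A) that stabilise their clients.

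The members lie on separate loci of GRCh38, here placed with GENCODE 29. LIN28A spans chr1:26410778-26429722 on the plus strand, LIN28B spans chr6:104936616-105083332 on the plus strand, and L1TD1 spans chr1:62194831-62212328 on the plus strand. IGF2BP1 spans chr17:48997412-49055650 on the plus strand, IGF2BP2 spans chr3:185643739-185825056 on the minus strand and IGF2BP3 spans chr7:23310209-23470467 on the minus strand. Because the let-7 loop is the link known between these genes, the microRNA and its matches in their 3′ UTRs are shown first. The mature let-7 sequences, from RefSeq on GRCh38.p14, are written with the seed (bases 2 to 8) in capitals. All 9 distinct let-7 and miR-98 guide sequences in the table shared the seed GAGGUAG, and 3 are printed to show how they differ outside it.
hsa-let-7a-5p: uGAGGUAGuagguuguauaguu
hsa-let-7g-5p: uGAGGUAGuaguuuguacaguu
hsa-miR-98-5p: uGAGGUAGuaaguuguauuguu

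The LIN28 zinc knuckles are known to recognise GGAG in the let-7 precursor loop. These letters stood in 9 of the 12 let-7 family hairpins, and in 43.4% of all 1562 human hairpins of the RefSeq table, wherever in the hairpin they fell. The let-7a-1 hairpin, at chr9:94175957-94176036 on the plus strand, is shown with GGAG in capitals.
MIRLET7A1: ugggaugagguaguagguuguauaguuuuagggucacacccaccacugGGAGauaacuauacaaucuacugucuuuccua

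The letters complementary to the seed, CTACCTC, were searched on the sense strand of the 3′ UTR of each member's longest coding transcript in GENCODE 29. LIN28B held 4 matches in 4549 bases, IGF2BP1 held 4 in 6206 bases, and LIN28A, IGF2BP2 and IGF2BP3 held 1 each in 3264, 1792 and 2153 bases. L1TD1 held 0 matches in a 3′ UTR of 956 bases. Of UTRs within 20% of each member's length, at least 1 match was present in 23.2% for LIN28B, 29.3% for IGF2BP1, 16.3% for LIN28A, 11.1% for IGF2BP2, 12.4% for IGF2BP3 and 6.33% for L1TD1. Over all 19087 UTRs the share was 9.44%. A match describes letters only. The matches followed by A, which complete the longest canonical class of seed site, are printed 5′ to 3′ on the sense strand, with the match in capitals and its own coordinates.
LIN28A, chr1:26427363-26427369, plus strand: gcacagcctattgaaCTACCTCat
LIN28B, chr6:105078827-105078833, plus strand: acccggttgcaaagtCTACCTCat
LIN28B, chr6:105081436-105081442, plus strand: gtttacagcaaaaggCTACCTCat
IGF2BP1, chr17:49051076-49051082, plus strand: tgtgtgcgaagtaaaCTACCTCaa
IGF2BP1, chr17:49053713-49053719, plus strand: cagcagtgctagtaaCTACCTCac
IGF2BP1, chr17:49054367-49054373, plus strand: gtataaatggattaaCTACCTCaa
IGF2BP2, chr3:185644221-185644227, minus strand: aacacacagaagaagCTACCTCag
IGF2BP3, chr7:23311796-23311802, minus strand: tgcatttttactcaaCTACCTCag

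**Figure D1:**
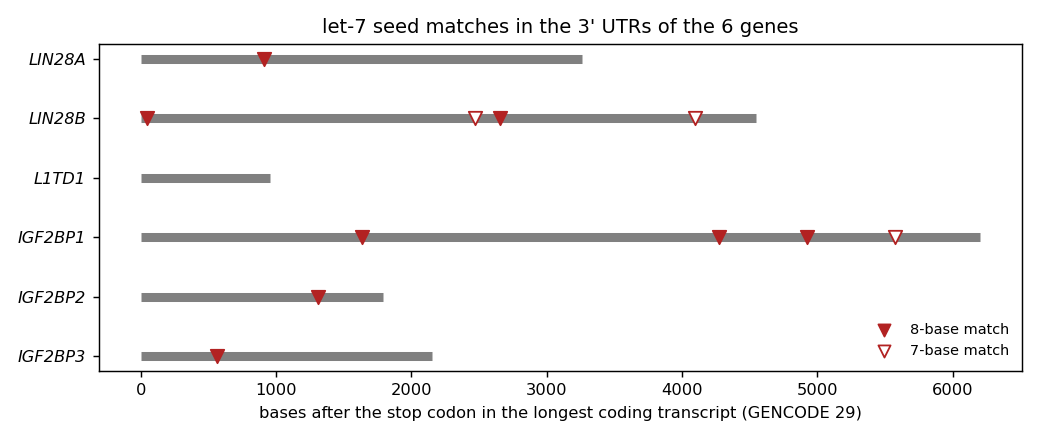
Let-7 seed matches along the 3′ UTRs of the 6 genes, drawn to scale in bases after the stop codon of the longest coding transcript. Filled triangles mark matches followed by A (8-base match) and open triangles the others (7-base match); LIN28B and IGF2BP1 hold 4 each and L1TD1 holds 0.

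The 84 libraries held 118549 to 1877837 gene reads (median 768161) and 7986 to 19336 genes with a read. Levels are in CPM: the reads of a gene over all gene reads of its library, times 1e+06. The floor, the upper limit of 3 reads that a count of 0 allows, equals 1.60 to 25.3 CPM depending on the library. The reads carry no molecular identifiers, so floors and Poisson intervals cover the counting error of reads only. Intervals on shares of libraries treat the wells of this plate as independent draws and cover no difference between cultures. DNMT1, the gene targeted by the knockout system, had a read in 75 of the 84 libraries, with 0 to 213 CPM and a median of 5.41 CPM. The summed level of 8 pluripotency markers (among them POU5F1, TDGF1 and DPPA4) ranged from 19.7 to 4053 CPM with a median of 2178 CPM; ZFP42 averaged 2.83 CPM. The median sums of 5 neural, 6 fibroblast, 5 primitive streak, 5 endoderm and 5 trophoblast markers were 259, 203, 24.4, 13.9 and 17.8 CPM. Of the fibroblast sum, THY1 had a median of 152 CPM, COL1A2 of 5.37 CPM and COL1A1 of 2.56 CPM. COL3A1, LUM and DCN had medians of 0. COL1A2 reached 10 CPM in 31 libraries, with a highest value of 802 CPM. Of the neural sum, PAX6, MAP2 and SOX1 averaged 148, 116 and 4.14 CPM. In the pool of 9 libraries below 1% mitochondrial reads they had more, 1044, 927 and 29.7 CPM. NES averaged 55.8 CPM, against 8.91 CPM in that pool, and TUBB3 averaged 20.2 CPM, against 17.8 CPM. Libraries on plate rows F and G (22 libraries) had a median of 498244 gene reads, against 889048 in the other rows (62 libraries), and 13 libraries had GAPDH below 100 CPM.

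L1TD1 and LIN28A were the abundant members and were read in 82 libraries each. L1TD1 averaged 557 ± 340 CPM (SD, n = 84 libraries), with a lowest value of 0, a median of 553 and a highest value of 1727 CPM in well E9. LIN28A averaged 453 ± 333 CPM (SD, n = 84), with a lowest value of 0, a median of 433 and a highest value of 1536 CPM in well C12. By mean level, L1TD1 stood at place 237 and LIN28A at place 320 among 46952 genes with a read. The other 4 members were several-fold lower in CPM and more uneven between wells.

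LIN28B averaged 115 ± 136 CPM (SD, n = 84), with a lowest value of 0, a median of 60.2 and a highest value of 611 CPM in well C8. IGF2BP1 averaged 121 ± 107 CPM (SD, n = 84), with a lowest value of 0, a median of 93.4 and a highest value of 420 CPM in well B1. IGF2BP2 averaged 80.8 ± 90.4 CPM (SD, n = 84), with a lowest value of 0, a median of 45.5 and a highest value of 543 CPM in well E8. IGF2BP3 averaged 75.6 ± 81.1 CPM (SD, n = 84), with a lowest value of 0, a median of 48.9 and a highest value of 340 CPM in well B10. For LIN28B, IGF2BP2 and IGF2BP3 the SD exceeded the mean. The IGF2BP3 values omit reads that overlap a neighbouring gene, which are described further on.

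**Figure D2:**
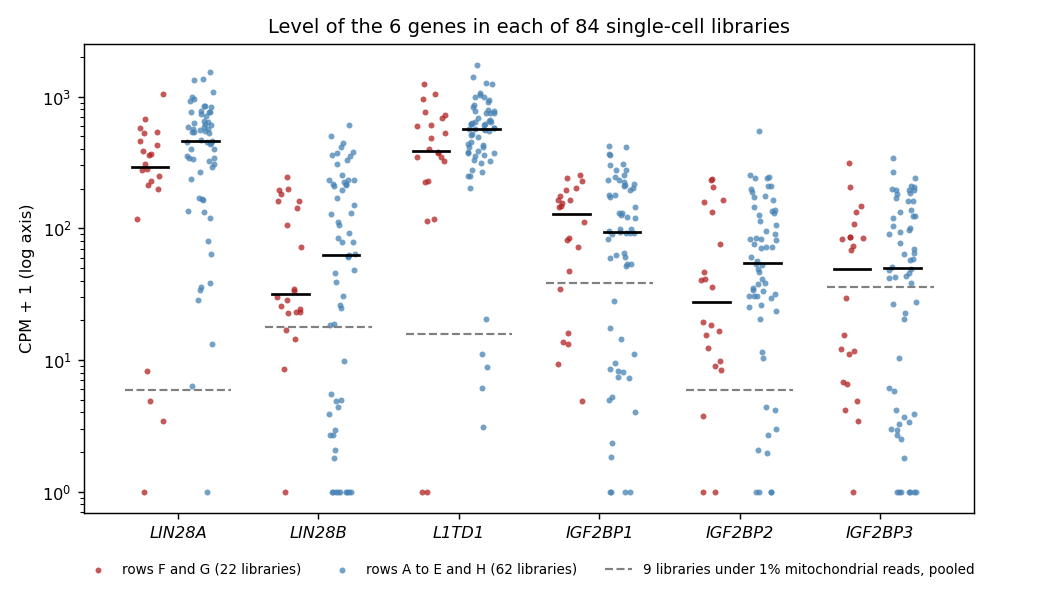
Level of each gene in the 84 libraries, as CPM + 1 on a log axis, with rows F and G (22 libraries) left of rows A to E and H (62 libraries). Points are libraries, black bars are medians, and the dashed line is the level in the pooled reads of 9 libraries with under 1% mitochondrial reads; L1TD1 and LIN28A stand farthest above that line.

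L1TD1 and LIN28A also reached 10 CPM most often. L1TD1 did so in 79 libraries (94%, exact Clopper-Pearson 95% interval 86.7 to 98%) and LIN28A in 78 (92.9%, 85.1 to 97.3%). IGF2BP1 and IGF2BP2 each reached 10 CPM in 67 libraries (79.8%, 69.6 to 87.7%). LIN28B reached it in 62 (73.8%, 63.1 to 82.8%) and IGF2BP3 in 58 (69%, 58 to 78.7%). All 6 genes reached 10 CPM in 46 libraries (54.8%), 5 of them in 9 libraries, 4 in 14, 3 in 7, 2 in 5 and 1 in 3. In 7 of the 84 libraries the floor lay above 10 CPM. Well E10, for example, counts as having 2 members at that level from L1TD1 and IGF2BP1 at 10.2 CPM each, with a floor of 15.3 CPM.

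The 9 libraries with a mitochondrial share under 1%, all left out, give a background for these counts. Of them, 9 reached 10 CPM of IGF2BP1, 8 of IGF2BP3, 5 of L1TD1, 4 of LIN28B, 3 of IGF2BP2 and 1 of LIN28A, so 10 CPM of IGF2BP1 or IGF2BP3 is a level that the background also reaches. These libraries were shallow, with 87891 to 155710 gene reads and floors of 19.3 to 34.1 CPM, so 10 CPM there corresponds to fewer than 3 reads. Above the highest of the 9 background libraries stood 78 of the 84 for LIN28A (highest background 11.4 CPM), 77 for L1TD1 (40.5 CPM) and 63 for IGF2BP2 (17.3 CPM). For IGF2BP1 it was 53 (60.5 CPM), for LIN28B 43 (51.9 CPM) and for IGF2BP3 16 (156 CPM, in well H4). The highest background of LIN28A (well E6) and of IGF2BP2 (well G3) lay below floors of 34.1 and 25.9 CPM, so each rests on fewer than 3 reads.

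Zeros also occurred in deeply sequenced libraries. LIN28B had 0 reads in 10 libraries, and one of them, well D5, held 1482508 gene reads, so that its floor was 2.02 CPM. That well had 447 CPM of LIN28A, 638 CPM of L1TD1 and 233 CPM of IGF2BP1. Well B6, with 969256 gene reads and a floor of 3.10 CPM, also had 0 LIN28B reads beside 168 CPM of LIN28A. LIN28A and L1TD1 had 0 reads in 2 libraries each, which held 196136 and 375232 gene reads for LIN28A and 118549 and 257404 for L1TD1.

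The members parted within single wells. LIN28A reached 10 CPM without LIN28B in 20 libraries and LIN28B without LIN28A in 4, while both did in 58 and neither in 2. Well C8 had the highest LIN28B level, 611 CPM, beside 37.7 CPM of LIN28A. Well C12 had the highest LIN28A level, 1536 CPM, beside 2.13 CPM of L1TD1 and 1.06 CPM of LIN28B. Wells C12 and C8 both fell in the subset with GAPDH below 100 CPM. Wells with GAPDH above that level also held such contrasts between members: well E9 had 27.7 CPM of LIN28A and 111 CPM of LIN28B, well D11 had 5.33 CPM of LIN28A and 515 CPM of L1TD1, and well D4 had 63.2 CPM of LIN28A and 7.90 CPM of L1TD1.

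Among the IGF2BP paralogs, all 3 reached 10 CPM in 52 libraries, 2 in 11, 1 in 14 and none in 7. Well E8, where IGF2BP2 was highest at 543 CPM, had 7.27 CPM of IGF2BP1 and 4.84 CPM of IGF2BP3. With the reads that overlap the neighbouring gene added, its IGF2BP3 level was 41.2 CPM. Well G9 showed the opposite order, with 227 CPM of IGF2BP1 and 8.0 CPM of IGF2BP2. L1TD1 reached 10 CPM without IGF2BP3 in 21 libraries, and the reverse occurred in 0. The library counts in this paragraph omit those overlapping IGF2BP3 reads.

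Levels of different genes compare only per transcript length. Divided by the kilobases of the longest coding transcript, the median level was 144 CPM per kb for L1TD1 and 108 CPM per kb for LIN28A. IGF2BP2, IGF2BP3, IGF2BP1 and LIN28B followed with medians of 12.3, 11.5, 11.3 and 10.9 CPM per kb. L1TD1 was above LIN28A per kb in 48 libraries and below it in 36, and the mean difference of 31.6 CPM per kb was smaller than its SD of 122. LIN28A was above IGF2BP2 in 74 libraries and below it in 9, with a mean difference of 91.2 CPM per kb and an SD of 85.6. It was likewise above its paralog LIN28B in 74 libraries and below it in 9. The lower 4 did not separate: IGF2BP2 was above IGF2BP3 in 43 libraries and below it in 38, IGF2BP3 was above IGF2BP1 in 42 and below it in 40, and IGF2BP1 was above LIN28B in 38 and below it in 45. Their order also changed when the union of exons was used as the length, which put IGF2BP1 at place 3 with 10.3 CPM per kb and IGF2BP3 last at 5.75 CPM per kb.

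The IGF2BP3 count depended on how reads were assigned. IGF2BP3 and MALSU1, a gene for a mitochondrial ribosome assembly factor, meet tail to tail on opposite strands, and their annotated exons share 1521 bases at chr7:23310209-23311729. Without regard to strand, IGF2BP3 received 5920 reads over the 84 libraries, and a read that falls in both genes is left out as ambiguous. The 2 strand columns of the deposited tables, added together, gave it 12641 reads, 2.14 times as many. Only 1 of the 6 members passed 1.5 times on this measure, against 5.2% of 9003 genes; the other 5 members had ratios of at most 1.01. The strand columns held near-equal counts for the other members, for example 17993 forward and 18298 reverse for LIN28A, so strand does not tell the source of a read here.

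The 6721 added reads made up 53.2% of the IGF2BP3 sum. MALSU1 had 5699 reads without regard to strand and 12417 from the strand columns, a surplus of 6718. The surplus of the 2 genes was equal in 79 of the 84 libraries and differed by at most 1 read in the rest, as it must where the same reads are counted for both. On the strand-column sum, IGF2BP3 averaged 162 ± 139 CPM (SD, n = 84) with a median of 158 CPM, and it reached 10 CPM in 66 libraries (78.6%). Per kb this sum gave a median of 37.1 CPM, which gave IGF2BP3 place 3 of the 6. This is an upper value, since part of the shared reads may be MALSU1 transcripts.

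The shared reads were then set beside the reads unique to each gene. In 9 libraries IGF2BP3 reached 10 CPM on its own reads and MALSU1 did not, and there the median was 50 shared reads beside 43 reads unique to IGF2BP3. In 10 libraries MALSU1 reached 10 CPM and IGF2BP3 did not, and there the median was 5 shared reads beside 83 reads unique to MALSU1. In the 49 libraries with both, the median was 81 shared reads, and in the 16 with neither it was 0. Across the 84 libraries the shared reads had a Spearman rho of 0.53 with IGF2BP3 and of 0.24 with MALSU1. Well A10 shows the size of the effect: 23 reads were assigned to IGF2BP3 and 114 to MALSU1, while 355 were shared. Of the 26 libraries with IGF2BP3 below 10 CPM, 8 reached 10 CPM on the strand-column sum, and 5 of these 8 had MALSU1 at 10 CPM or more on its own reads.

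**Figure D3:**
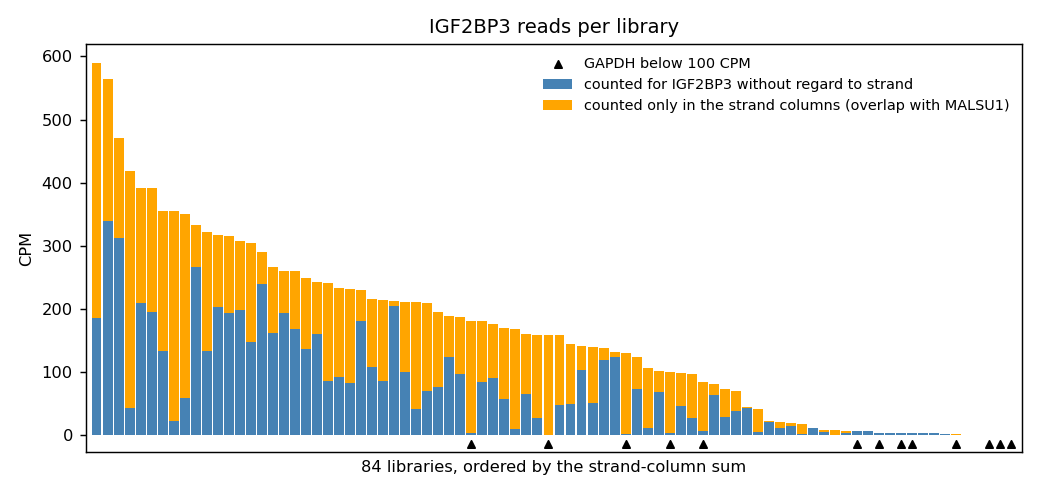
IGF2BP3 reads in each of the 84 libraries in CPM, ordered by the strand-column sum: blue, reads counted without regard to strand; orange, the 53.2% of reads counted only in the strand columns, where the gene overlaps MALSU1. Triangles mark the 13 libraries with GAPDH below 100 CPM, 5 of which hold orange bars with almost no blue.

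In the 13 libraries with GAPDH below 100 CPM, set beside the 71 with at least 100 CPM, the members fell into different patterns. IGF2BP1 averaged 6.50 CPM in the 13 libraries, against 141 CPM in the 71, a ratio of 0.0460. Its range there was 0 to 33.7 CPM with a median of 4.26, against 0 to 420 CPM with a median of 124. IGF2BP3 averaged 1.98 CPM in the 13 libraries, against 89.1 CPM in the 71, a ratio of 0.0223, and its range of 0 to 5.81 CPM with a median of 2.36 stood against 0 to 340 CPM with a median of 69 CPM. Thus 2 of the 13 libraries reached 10 CPM of IGF2BP1 and 0 reached it for IGF2BP3, against 65 and 58 of the 71. The ranges overlap, since some libraries with at least 100 CPM of GAPDH also had 0 reads of either gene.

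LIN28B and IGF2BP2 were also lower by median there, with a few high wells. LIN28B had a median of 3.84 CPM in the 13 libraries, against 70.6 CPM in the 71, and reached 10 CPM in 6 of 13, against 56 of 71. Its means were closer, 104 CPM in the 13 libraries and 117 CPM in the 71, with wells C8, C5 and A3 at 611, 446 and 210 CPM. IGF2BP2 had a median of 7.40 CPM in the 13 libraries, against 55.3 CPM in the 71, reached 10 CPM in 6 of 13, against 61 of 71, and averaged 42.5 CPM, against 87.8 CPM. L1TD1 and LIN28A stayed abundant in most of the 13. L1TD1 had a median of 544 CPM in the 13 libraries and 561 CPM in the 71, and averaged 545 and 559 CPM. It reached 10 CPM in 10 of 13, against 69 of 71, with 2.13, 5.12 and 0 CPM in wells C12, C4 and F3. LIN28A had a median of 211 CPM in the 13 libraries, against 454 CPM in the 71, and averaged 334 CPM, against 475 CPM. It reached 10 CPM in 12 of 13, against 66 of 71. A mean below 0.2 times that of the 71 was thus found for 2 of the 6 members, and for 26.1% of 9003 genes, whose median ratio was 0.601. The 13 libraries had a median of 689257 gene reads, against 775253 in the 71, and a median log2 MT-CO2 over MT-CO1 of 1.69, against -1.89. The part of these library properties in the result was not tested.

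For IGF2BP3 the strand-column sum changed the picture. It averaged 51.2 ± 68.9 CPM in the 13 libraries, against 182 ± 139 CPM in the 71 (SD), a ratio of 0.281 that no longer lies below 0.2. In 5 of the 13, wells A12, C5, C8, F12 and F7, the sum was 130, 158, 99.1, 180 and 83.3 CPM, and in the other 8 it was at most 5.53 CPM. Wells A12 and F12 had 161 and 72 shared reads beside 1 read each unique to IGF2BP3, and 2 and 0 reads unique to MALSU1. Well C5 had 148 shared reads beside 0 unique to IGF2BP3 and 227 unique to MALSU1.

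**Figure D4:**
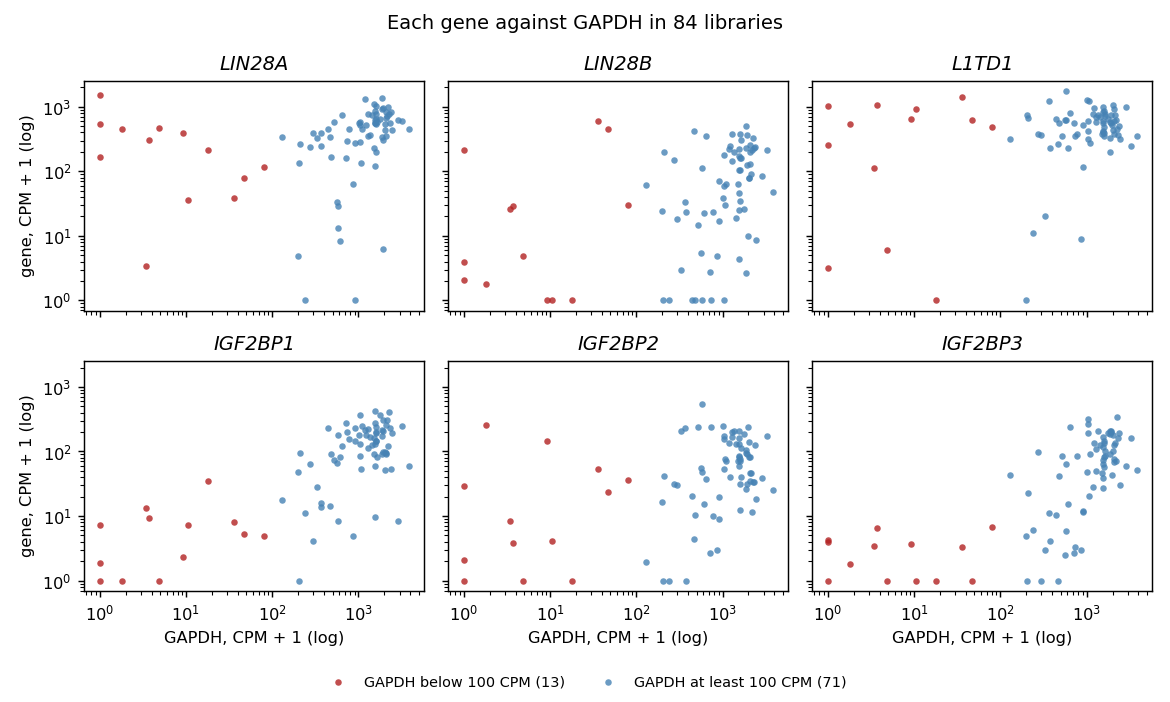
Each gene against GAPDH in the 84 libraries, both as CPM + 1 on log axes, with the 13 libraries below 100 CPM of GAPDH in red and the 71 others in blue. L1TD1 and LIN28A reach 1418 and 1536 CPM among the red points, while IGF2BP1 stays at or below 33.7 CPM and IGF2BP3, without the reads shared with MALSU1, at or below 5.81 CPM.

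Levels were also compared by plate row. In rows F and G the median of LIN28A was 292 CPM, against 462 CPM in the other rows. LIN28B had a median of 30.8 CPM in rows F and G, against 62.2 CPM, and L1TD1 had 387 CPM, against 569 CPM. IGF2BP2 had 26.7 CPM in rows F and G, against 53.7 CPM, and IGF2BP3 had 48.3 CPM, against 48.9 CPM. IGF2BP1 alone had a higher median in rows F and G, 127 CPM against 92.2 CPM. LIN28B, lower by median there, reached 10 CPM in 20 of 22 libraries of rows F and G, against 42 of 62 in the other rows. Background wells F9 and G3, in the same rows, had 47.9 and 51.9 CPM of LIN28B, above the median of 30.8 CPM. The other background wells had at most 20.3 CPM. In rows F and G, 10 CPM of LIN28B is thus a level that the background also reaches. The ranges of the row groups overlapped for all 6 genes.

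Because under 1% of their reads were mitochondrial, 9 libraries were left out, and their pooled 1009549 gene reads serve as the comparison; they had 9308 to 16206 genes with a read. LIN28A averaged 453 CPM in the 84 libraries, against 4.95 CPM in the pool (5 reads, exact Poisson 95% interval 1.61 to 11.6 CPM), a ratio of 91.6. L1TD1 averaged 557 CPM, against 14.9 CPM in the pool (15 reads, interval 8.32 to 24.5 CPM), a ratio of 37.5. IGF2BP2 had a ratio of 16.3 (5 reads in the pool) and LIN28B a ratio of 6.83 (17 reads). The pool's LIN28B level was uneven, with 47.9 and 51.9 CPM in wells F9 and G3 and at most 20.3 CPM in the others. IGF2BP1 and IGF2BP3 had the lowest ratios: IGF2BP1 averaged 121 CPM, against 37.6 CPM in the pool (38 reads, interval 26.6 to 51.7 CPM), a ratio of 3.20, and IGF2BP3 averaged 75.6 CPM, against 34.7 CPM (35 reads, interval 24.1 to 48.2 CPM), a ratio of 2.18. Well H4 alone held 17 of these 35 IGF2BP3 reads, and without it the pool had 20 CPM and the ratio was 3.79. Thus 4 of the 6 members passed a ratio of 5, as did 47.1% of 9003 genes, whose median ratio was 4.45. The pool level of IGF2BP1 was spread over all 9 libraries, from 10.1 to 60.5 CPM. In the 3 remaining unused libraries, with 768 to 1133 gene reads, all 6 genes had 0 reads.

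The 6 genes lay below the trend of variability for genes of like level. The squared coefficient of variation, on a log2 scale, was compared with its trend on mean level; 0 of the 6 members lay 1 or more above the trend, against 13.3% of 8995 genes. LIN28B was nearest the trend, at -0.14, and at 0.10 with the highest library of each gene left out. LIN28A lay at -0.29. IGF2BP2, L1TD1, IGF2BP3 and IGF2BP1 lay at -0.65, -0.67, -0.84 and -0.92. IGF2BP1 thus stood at the 13.4 percentile of all genes compared and LIN28B at the 42.9 percentile.

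The members' levels were correlated only in part. Spearman's rho over the 84 libraries is given here as a description, since the points share a plate, a culture and their depth. It was positive for all 15 pairs, from 0.06 to 0.62, with a median of 0.29. The highest was that of IGF2BP1 with IGF2BP3, at 0.62, and IGF2BP3 also had the next highest, 0.54 with LIN28A and 0.47 with LIN28B. The paralogs LIN28A and LIN28B had a rho of 0.31. LIN28A and L1TD1, whose proteins are known to associate, had a rho of 0.13, and L1TD1 with IGF2BP1 had the lowest, 0.06.

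Given gene reads and genes detected, the median of the 15 pairs was 0.14 and 14 remained positive. IGF2BP1 with IGF2BP3 then had a partial rho of 0.46 and LIN28A with IGF2BP3 of 0.44. With the strand-column sum the rho of IGF2BP1 with IGF2BP3 was 0.52, and over the 71 libraries with at least 100 CPM of GAPDH it was 0.44. LIN28A with L1TD1 had a rho of 0.49 in rows F and G and of -0.02 in the other rows. For comparison, the median rho with 8184 genes was 0.24 for IGF2BP1 and for IGF2BP3, 0.16 for LIN28B, 0.15 for LIN28A, 0.11 for IGF2BP2 and 0.06 for L1TD1. L1TD1 was therefore the member least tied to the rest of the transcriptome by this measure.

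**Figure D5:**
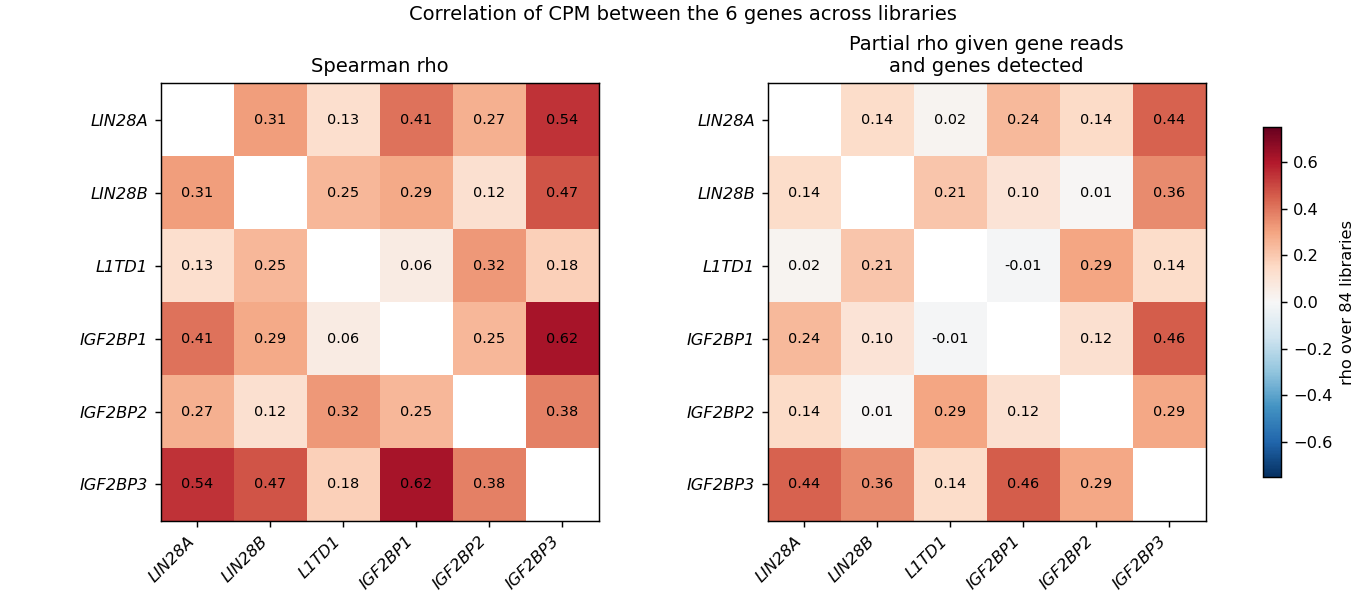
Spearman rho of CPM for the 15 pairs of the 6 genes over 84 libraries, left, and partial rho given gene reads and genes detected, right; colour gives the sign and size. IGF2BP1 with IGF2BP3 is the highest pair in both panels, at 0.62 and 0.46.

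The genes whose CPM followed each member most closely, chosen from the 8184 that averaged 10 CPM or more and were read in 50% or more of the libraries, differed from member to member. For IGF2BP3 the nearest was GAPDH, the glycolytic dehydrogenase, with a rho of 0.71, then TUBA1B, an alpha-tubulin, at 0.68, and HNRNPCP2, TPI1P1 and NDUFA10 at 0.67, 0.67 and 0.66. With the strand-column sum its rho with GAPDH was 0.56. For IGF2BP1 the nearest were UROD, a haem synthesis enzyme, at 0.63, MYBL2, a cell cycle transcription factor, at 0.62, IGF2BP3 itself at 0.62, and the tubulins TUBA1C and TUBA1B at 0.62 each. HNRNPCP2 and TPI1P1 are pseudogenes, and their reads may be shared with near-identical parent genes, as may those of the tubulins. IGF2BP3 and IGF2BP1 also followed properties of the library. Their rho with log2 MT-CO2 over MT-CO1 was -0.62 and -0.53, and with genes detected 0.44 and 0.49. The partial rho given above did not include log2 MT-CO2 over MT-CO1.

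For LIN28A the nearest genes were EIF5A, a translation factor, at 0.64, XRCC6, the Ku70 repair subunit, at 0.63, PAICS, a purine synthesis enzyme, at 0.60, and PRDX1 and HNRNPCP2 at 0.59 each. LIN28A itself had a rho of 0.57 with the library's gene reads. For LIN28B the nearest were EXOSC7, a subunit of the RNA exosome, at 0.63, then GNPAT, GOSR1, TAF13 and AK4 at 0.58, 0.57, 0.56 and 0.56. For IGF2BP2 the nearest were KHSRP, an RNA-binding protein with KH domains known to act in let-7 maturation, at 0.60, and USP7, HSD17B10, TRAPPC11 and ZNF121 at 0.59, 0.52, 0.51 and 0.50. L1TD1 had the weakest partners: SUPT16H, a FACT histone chaperone subunit, at 0.48, then NARS, PLS1, HNRNPAB and PAN2 at 0.45, 0.41, 0.41 and 0.41.

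The other side of the let-7 loop was partly measurable. Mature microRNAs have no poly(A) tail and were not assayed by these poly(A) libraries. The 12 let-7 family precursor symbols received 128 of 68033305 gene reads, of which 105 were on MIRLET7D in 9 libraries. The host transcript MIRLET7BHG had 52 reads in 37 libraries and averaged 0.96 CPM. Over all 46952 genes with a read, 9003 averaged at least 10 CPM, and the list counts below stand beside that number. Some counted genes lay below their level in the pooled libraries under 1% mitochondrial reads. DGCR8 and DIS3L2 averaged 20.1 and 12.3 CPM, against 102 and 53.5 CPM in that pool. Of the 12 genes listed for let-7 processing, DGCR8 and DIS3L2 among them, 11 averaged at least 10 CPM. Their highest were TRIM71, a stem cell ubiquitin ligase and RNA-binding protein, at 230 ± 188 CPM, AGO2, the slicing Argonaute, at 185 ± 177 CPM, DICER1, which cuts the hairpin, at 144 ± 159 CPM, and DROSHA, which frees it from the primary transcript, at 62.9 ± 97.4 CPM (SD, n = 84 each).

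Of 20 known let-7 targets, 18 averaged at least 10 CPM. The highest were CCND2, a D-type cyclin, at 268 ± 327 CPM, TRIM71, as given above, and HMGA1, a chromatin architectural protein, at 221 ± 178 CPM (SD, n = 84 each). Over the 18 targets the median rho was 0.24 with LIN28A and 0.23 with LIN28B, where the medians over all 8184 genes were 0.15 and 0.16. Some lists with no stated tie to let-7 were as high. The 8 housekeeping genes had medians of 0.43 with LIN28A and 0.28 with LIN28B. For 10 genes of G1 and S phase they were 0.25 and 0.23. Other lists were lower with LIN28A: 12 genes of G2 and M phase had 0.14 and 0.27, and 14 m6A genes had 0.20 and 0.23. The part of let-7 in these values was not tested. The targets ranged from -0.20 to 0.48 with LIN28A. Of the 18 targets, INSR, IRS2 and ARID3A averaged 33.7, 16.4 and 13.5 CPM, below their 107, 16.8 and 21.8 CPM in the pool.

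Among 14 transcripts known as IGF2BP clients, 10 averaged at least 10 CPM. ACTB, cytoplasmic beta-actin, was at 1470 ± 606 CPM, SOX4 at 508 ± 427 CPM and CTNNB1, beta-catenin, at 336 ± 222 CPM (SD, n = 84 each). IGF2, the client the family is named after, averaged 5.58 CPM, and H19 averaged 1.48 CPM. FOXM1 and CD44, counted among the 10, averaged 44.5 and 10.2 CPM. In the pooled libraries under 1% mitochondrial reads they had more, 308 and 22.8 CPM. The 14 listed protein partners of IGF2BP ribonucleoprotein particles all averaged at least 10 CPM, led by HNRNPA1 at 1227 ± 504, MATR3 at 900 ± 460, PABPC1 at 798 ± 487 and HNRNPU at 393 ± 257 CPM (SD, n = 84 each). Among the partners, UPF1 averaged 21.3 CPM, below its 144 CPM in the pool. Of 15 m6A writers, erasers and readers, 14 averaged at least 10 CPM. FTO, ALKBH5 and CBLL1, counted among the 14, averaged 30.7, 32.3 and 68.7 CPM. Their pool levels were higher, 63.4, 37.6 and 81.2 CPM. YTHDF2, a cytoplasmic reader, was at 184 ± 171 CPM, METTL3, the catalytic writer, at 169 ± 222 CPM, WTAP, its adaptor, at 150 ± 139 CPM and YTHDC1, the nuclear reader, at 139 ± 169 CPM (SD, n = 84 each).

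Other RNA-binding proteins of stem cells or germ cells were present less evenly, with 16 of 24 at a mean of at least 10 CPM. HNRNPH1 averaged 1051 ± 948 CPM, QKI 309 ± 251 CPM and PUM2, a Pumilio repressor, 187 ± 213 CPM (SD, n = 84 each). Of 16 pluripotency factors, 14 averaged at least 10 CPM. PRDM14, counted among the 14, averaged 13.8 CPM, below its 22.8 CPM in the pooled libraries under 1% mitochondrial reads. TDGF1, a NODAL co-receptor, averaged 684 ± 441 CPM, DPPA4 574 ± 314 CPM, POU5F1 448 ± 314 CPM and USP44, a deubiquitinase, 229 ± 241 CPM (SD, n = 84 each). Over 7 pluripotency markers the median rho was 0.43 with IGF2BP1, 0.37 with LIN28A, 0.36 with IGF2BP3, 0.27 with IGF2BP2, 0.26 with LIN28B and 0.22 with L1TD1. Over 13 of the 16 pluripotency factors the medians were lower than those for all 6 members, with 0.29 for IGF2BP1, 0.21 for IGF2BP2, 0.20 for IGF2BP3, 0.22 for LIN28B, 0.20 for L1TD1 and 0.19 for LIN28A; that of IGF2BP3 lies below its median of 0.24 over all 8184 genes. Over 8 housekeeping genes the medians were 0.43 with LIN28A, 0.39 with IGF2BP3, 0.32 with IGF2BP1, 0.28 with LIN28B, 0.14 with IGF2BP2 and 0.11 with L1TD1. For LIN28A, LIN28B and IGF2BP3 the housekeeping medians were thus above those of the markers.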

How the data were processed

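Per the labels' protocols, poly(A) RNA was pulled down from lysates of single cells and sequenced as Nextera XT libraries after SMART-seq2 amplification. FastQC, STAR 2.7.3a and the builds hg38 and GRCh38.p2 are named per the submitters' processing notes; the release of the annotation is not given in the sources used here. The authors deposited raw counts of reads per gene, with 4 summary lines on top; of the 3 columns, 1 ignores strand and the others hold a strand each. The summary lines held 88.8% of reads and entered no total. Counts without regard to strand were divided by the gene reads of the library to give CPM; the strand columns served for IGF2BP3. For 16 wells the table's name gave another well than the title, and titles were followed.

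The median library used had 768161 gene reads (118549 to 1877837). All libraries formed 1 group, so no test was made. The members and lists were chosen with earlier results of these data known. Genes were named if they were members, DNMT1, the 4 highest of a list by mean CPM or the 5 most alike by rho, except an item that is not reported here; MALSU1, GAPDH, IGF2, H19, ZFP42, THY1, COL3A1, LUM, DCN, PAX6, MAP2, MIRLET7D and MIRLET7BHG were chosen after their values were seen, as were the wells named. SOX1 and the list genes named for a mean below the pool were also chosen after their values were seen. Lengths, overlaps and UTRs came from GENCODE 29 on GRCh38, microRNA sequences from RefSeq. For variability, log2 CV2 was taken above or below its loess trend (span 0.5) over genes averaging 10 CPM or more and read in 10% or more of the libraries, tested on simulated data. Alternatives covered quality filters, plate rows, GAPDH, thinning to 100000 reads (seed 1), strand column, scaling (edgeR 4.0.16, scran 1.30.0) and length. Python 3.11.15 with pandas 2.3.3 and scipy 1.17.1, and R 4.3.3, were used.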

Additional observations from a re-analysis of the deposited data

How the results depend on the processing

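Of 72 alternative values of mean CPM, 71 moved by less than 1 SD between libraries. That SD is larger than the mean for LIN28B, IGF2BP2 and IGF2BP3, so even a fall to 0 would pass for them. IGF2BP3 moved to 145 CPM in the forward-strand and 149 CPM in the reverse-strand column, both counted among the 71. It moved to 162 CPM on their sum, an alternative chosen after seeing the data. Of 72 shares of libraries at 10 CPM, 66 stayed within the main interval. Rows F and G gave 81.8% for LIN28A and 90.9% for LIN28B and for IGF2BP1. Libraries with at least 100 CPM of GAPDH gave 91.5% for IGF2BP1 and 81.7% for IGF2BP3, and the forward-strand column gave 79.8% for IGF2BP3, which keeps the reads shared with MALSU1 on that strand. The median rho over the 15 pairs was 0.51 in rows F and G and 0.14 as a partial rho given gene reads and genes detected. Of 150 alternative values of single pairs, 37 moved by more than 0.1, and the cause was not tested. The excess variability of all 6 genes stayed below 1 under the 3 alternatives tried. The ratios to the pooled libraries under 1% mitochondrial reads kept their side of 5 in all 23 alternative values, with ranges of 5.99 to 12.5 for LIN28B, 1.72 to 3.99 for IGF2BP3 and 37.5 to 58 for L1TD1; the ratio of IGF2BP2 to the median of those libraries could not be computed, since that median is 0. Leaving well H4 out of the pool was also chosen after seeing the data. No paired analysis was possible because all libraries form 1 group. Values rest on 1 plate, reads without molecular identifiers and floors of up to 25.3 CPM, so a single 0 in a shallow library is not an absence.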
